A study of Mus musculus with 52 samples.

Results

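The brush border digestive enzymes of the small intestine were followed in mouse intestinal organoids over 13 groups of day and treatment. They were taken by gene symbol from the table of 24116 rows, and the 10 genes, all of which were found and passed the filter on low values, are Sis, Mgam, Lct, Treh, Alpi, Anpep, Enpep, Dpp4, Mep1a and Mep1b. The organoids came from 2 male littermates of the wild type C57BL/6 strain, 8 weeks old, 1 culture from each mouse. They were seeded as dissociated cells, 50000 to a well, and were given DMSO as vehicle, or all-trans retinoic acid (atRA) at 10 µM, or an antagonist of the retinoid X receptors (RXRi) at 5 µM, on day 0 and again on day 3. RNA was collected on days 1, 3, 4 and 5, at 24, 72, 96 and 120 hours, from 3 pooled wells, and a DMSO group was collected on day 0. All groups shared a medium with EGF, Noggin and R-spondin. Until day 3 it also held 20% Wnt3a-conditioned medium, 10 µM of the ROCK inhibitor Y-27632 and 3 µM of the GSK3 inhibitor CHIR99021, so that the step from day 3 to day 4 follows a change of medium in every treatment. Each group has 2 cultures with duplicate RNA preparations, and n = 2 cultures throughout. The p-values of the main fit rest on the spread between cultures of the 2 mice, pooled over the 13 groups and not paired by mouse.

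Enterocytes, the absorptive cells of the gut lining, carry these enzymes on their apical microvilli, where the last steps of carbohydrate and protein digestion take place. Sucrase-isomaltase (Sis), maltase-glucoamylase (Mgam), lactase (Lct) and trehalase (Treh) split short sugars. Intestinal alkaline phosphatase (Alpi) removes phosphate groups, the aminopeptidases N and A (Anpep and Enpep) and dipeptidyl peptidase 4 (Dpp4) trim peptides from their amino end, and the meprins (Mep1a and Mep1b) are metalloproteases that cut within proteins. Lactase is known as the disaccharidase of the suckling gut, and sucrase-isomaltase and trehalase as those that replace it at weaning. Retinoic acid receptors bind DNA as pairs with retinoid X receptors, which are also the partners of several receptors for lipids and bile acids.

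Values are RPKM, reads scaled to the length of the gene and the total of the library, which allow levels of different genes to be set side by side. The 51 libraries used held 12895667 to 26206028 reads counted to genes (median 19686970). A further library, 1 of the 2 duplicates of DMSO culture 1 on day 1, held 12443 reads and was left out, so that this culture rests on 1 library. Putting it back ended 19 member calls over the 23 comparisons, among them that of Mep1b with atRA on day 5 (adjusted p = 0.4). The epithelial markers (Epcam, Cdh1, Krt8 and 3 others) summed to 2631 RPKM or more in every library. All 9 fibroblast and pericyte markers together summed to 0.629 to 2.34 RPKM and all 5 endothelial markers to at most 0.564 RPKM. Of the 11 immune markers, 9 or 10 had a mean below 1 RPKM in every group, and their sum of 1.29 to 53.0 RPKM came mostly from Lyz2, with Ptprc at or near 0.

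The stretch just before the start site is shown for 5 of the genes, since Anpep, Alpi, Sis and Mgam were each the highest member in some group and Lct the lowest in most. Each is the 150 bases upstream of the RefSeq start (GRCm38.p6), 5′ to 3′ on the gene's strand, and it ends 1 base before the start. Capitals mark the letters searched on either strand within this stretch. They are TTTAT, a core of CDX binding, and TATAAA of the TATA box, which contains TTTAT on the other strand. The others are CAAAGT, a core of HNF4 binding, and AGATAA, known from GATA factors. Sis is at chr3:72967864-72968013 on the minus strand, Alpi at chr1:87101607-87101756 (minus), Lct at chr1:128328319-128328468 (minus), Mgam at chr6:40628681-40628830 (plus) and Anpep at chr7:79848211-79848360 (minus).
Sis: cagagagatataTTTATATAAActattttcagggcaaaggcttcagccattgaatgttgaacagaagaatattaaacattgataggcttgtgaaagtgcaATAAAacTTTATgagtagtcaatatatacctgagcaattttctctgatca
Alpi: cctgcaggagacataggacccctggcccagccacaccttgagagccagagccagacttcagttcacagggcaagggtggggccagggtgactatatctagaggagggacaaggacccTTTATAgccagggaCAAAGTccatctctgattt
Lct: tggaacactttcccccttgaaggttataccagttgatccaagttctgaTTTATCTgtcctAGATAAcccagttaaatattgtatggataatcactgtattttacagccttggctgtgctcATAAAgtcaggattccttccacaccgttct
Mgam: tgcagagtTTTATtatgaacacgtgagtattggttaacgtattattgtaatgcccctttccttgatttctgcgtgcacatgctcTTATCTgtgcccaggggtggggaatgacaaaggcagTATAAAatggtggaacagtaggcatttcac
Anpep: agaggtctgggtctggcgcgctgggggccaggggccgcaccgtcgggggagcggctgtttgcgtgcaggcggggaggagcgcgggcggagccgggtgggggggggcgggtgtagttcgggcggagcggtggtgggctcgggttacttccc

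Promoters were found in the RefSeq table for 9 of the 10 genes, and 250 upstream bases were searched on both strands. TTTAT occurred in 6 of the 9 (Sis, Alpi, Lct, Mgam, Enpep and Dpp4), against 38.1% of 27025 mouse promoters. Sis held it 4 times, at -138, -133, -50 and -43. TATAAA occurred in 5 of the 9, against 12.97%. It contains ATAAA, which is TTTAT on the other strand, so each of its matches is always one of TTTAT too. The counts of these letters are therefore not separate. The HNF4 core CAAAGT occurred in 3 (Alpi, Treh and Mep1a), against 12.5%, and AGATAA or its variant TGATAA in 4 (Lct, Mgam, Mep1a and Dpp4), against 17.0%. The HNF1 letters GTTAAT were found in Sis, upstream of the stretch shown, against 6.52% of all promoters. The nuclear receptor core AGGTCA occurred in 1 (Treh), against 13.8%, and 0 of the 9 held its direct repeat with a spacer of 1 or 5 bases, AGGTCANAGGTCA or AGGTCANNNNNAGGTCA. Anpep held none of them. The entries of Mep1a and Dpp4 start within the gene's RefSeq interval, at another transcript start, and are included in these counts. A match describes the letters and is not a binding site, and no match says only that the letters are not in this window.

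Together the 10 genes took 0.304% of the reads on day 0, 0.0442% on day 1 in DMSO, 0.0543% on day 3, 0.335% on day 4 and 0.792% on day 5. With atRA the share was 0.0604%, 0.137%, 0.572% and 0.614% on days 1, 3, 4 and 5. With RXRi it went from 0.0179% on day 1 to 0.00942% on day 5. The make-up of the sum differed between groups. Anpep was 73.0% of the summed RPKM on day 0, Alpi was 33.6% on day 4 in DMSO, Sis was 46.0% on day 5 in DMSO, and Mgam was 79.4% to 86.3% with RXRi on days 3 to 5.

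**Figure D1:**
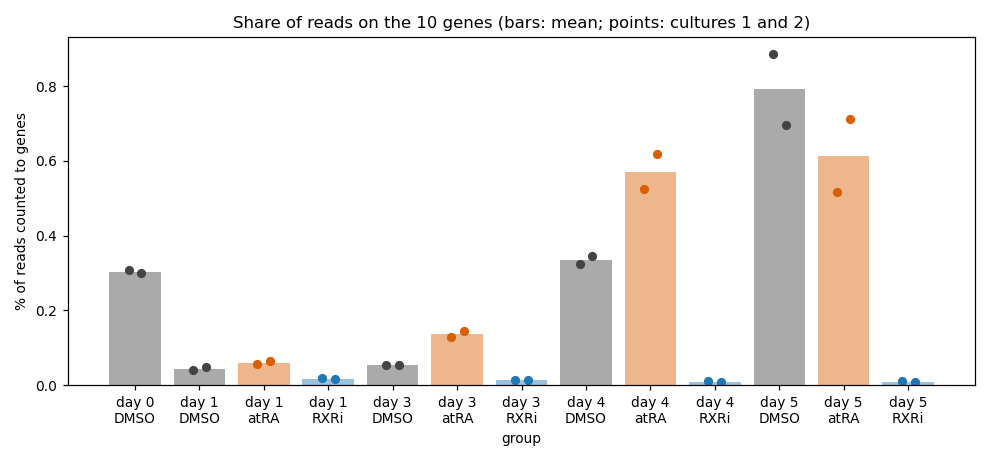
Share of reads counted to genes that fell on the 10 enzyme genes (vertical axis, %) in each group of day and treatment (horizontal axis); bars are the mean of 2 cultures and points are the cultures, grey for DMSO, orange for atRA and blue for RXRi. The mean was 0.304% on day 0, 0.0442% on day 1 in DMSO and 0.792% on day 5 in DMSO, and every RXRi group was at or below 0.0179%.

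Among the disaccharidases in DMSO, Sis had the widest course. It was at 62.8 and 69.5 RPKM in cultures 1 and 2 on day 0, 13.7 and 20.6 on day 1, 3.27 and 4.45 on day 3, 212 and 207 on day 4 and 880 and 658 on day 5. The libraries of these 5 groups did not overlap. From day 3 to day 4 the mean rose 54.3-fold, a log2 fold change of 5.46 ± 0.22 (standard error) with adjusted p = 4.1e-11, and it rose again by 1.85 ± 0.22 to day 5 (adjusted p = 0.00013). Fold changes are differences of log2(RPKM + 1), which understates those of low genes, and adjusted p-values are from limma with Benjamini-Hochberg adjustment.

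Mgam, the other starch-digesting enzyme, moved far less. It was at 60.1 and 54.3 RPKM on day 0, 20.6 and 20.7 on day 1, 43.3 and 39.4 on day 3, 91.2 and 79.9 on day 4 and 164 and 114 on day 5. Its libraries at each of these days lay apart from those of the others. It had the largest rise among the members between day 1 and day 3 on the log2(RPKM + 1) scale (0.96 ± 0.18, adjusted p = 0.0012), while Sis fell over the same interval by 1.89 ± 0.22 (adjusted p = 1.4e-05). On day 3 Mgam was thus 41.3 RPKM on average against 3.86 for Sis, and on day 5 it was 139 against 769.

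Treh was at 4.12 and 5.81 RPKM on day 0, at 0.330 and 0.225 on day 1, at 0.820 and 0.718 on day 3, at 12.6 and 22.8 on day 4 and at 36.4 and 61.7 on day 5. Its log2 fold change was -2.21 ± 0.42 from day 0 to day 1 (adjusted p = 0.00026) and 3.35 ± 0.42 from day 3 to day 4 (adjusted p = 7.2e-06). Exons of Treh overlap those of Phldb1 on the opposite strand, and whether counting used strand is not given in the sources used here. Treh had 0 to 4 reads in each RXRi library.

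Lct stayed low in every group. In DMSO it was at 0.294 and 0.369 RPKM on day 0 and at 0.955 and 3.76 on day 5, the group with its highest mean, and the highest library of all held 376 reads. Its rise from day 0 to day 5 (1.19 ± 0.33, adjusted p = 0.0042) rests on culture 2, and without it the value was 0.55 with adjusted p = 0.12.

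Alpi, the phosphatase, was at 9.53 and 11.5 RPKM on day 0, 13.4 and 16.1 on day 1, 7.32 and 9.72 on day 3, 255 and 272 on day 4 and 449 and 336 on day 5 in DMSO. The rise from day 3 to day 4 was 4.82 ± 0.17 on the log2 scale (30.9-fold, adjusted p = 1.9e-11), second in size to that of Sis. On day 5 Alpi stood 37.3-fold above day 0 (log2 fold change 5.09 ± 0.17, adjusted p = 1e-12). Its difference from day 0 to day 1 (0.45 ± 0.17, adjusted p = 0.033) did not keep its call without culture 1 of day 0 or culture 2 of day 1 (adjusted p = 0.21 in both), with a pseudocount of 0.1 (0.12) or with voom on reads (0.06). Its near copy Akp3, which may share reads with it, went from 5.78 RPKM on day 3 to 41.4 on day 4 in DMSO.

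**Figure D2:**
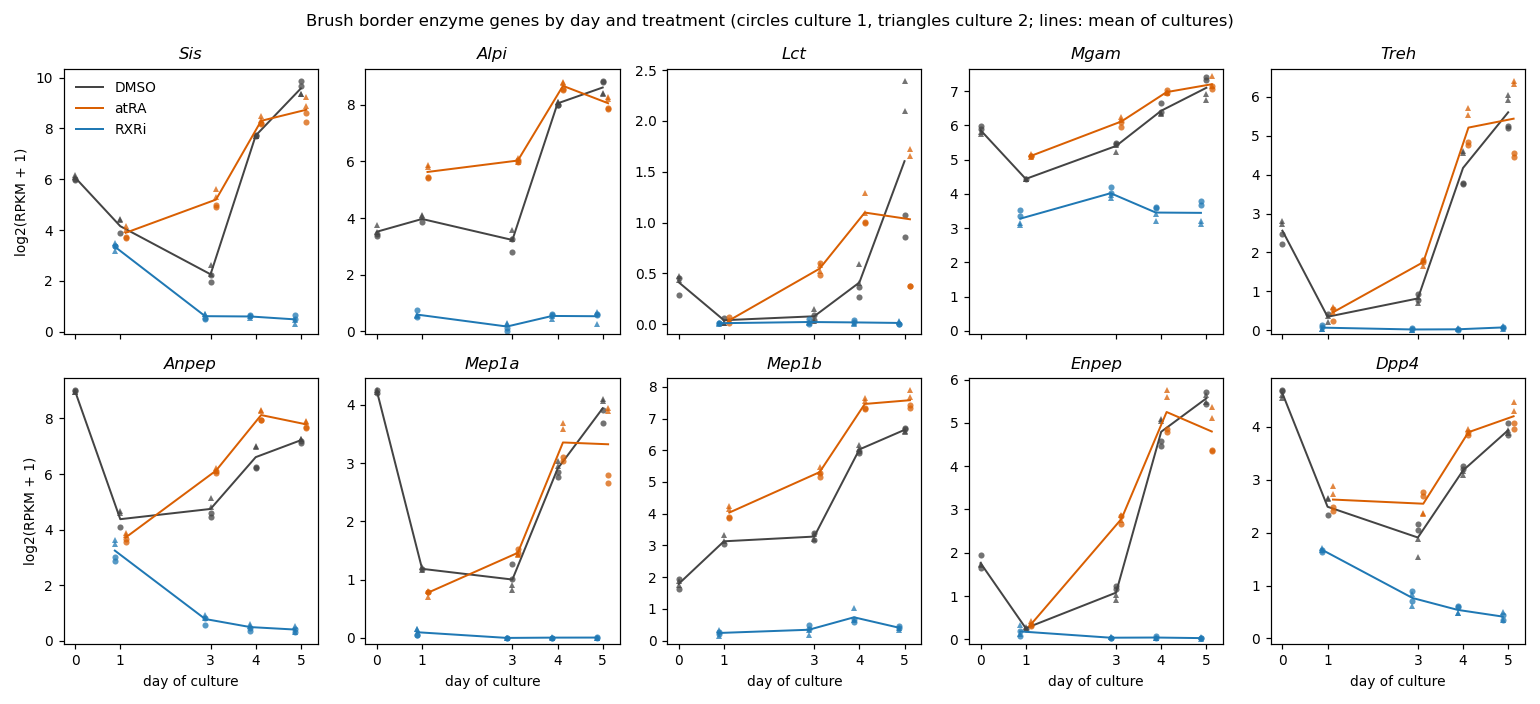
Level of each gene as log2(RPKM + 1) (vertical axis, with its own range in each panel) by day of culture (horizontal axis); points are libraries, circles culture 1 and triangles culture 2, and lines join the means of the cultures for DMSO (grey), atRA (orange) and RXRi (blue), shifted sideways for legibility. Sis in DMSO runs from 3.86 RPKM on day 3 to 769 on day 5, Anpep is highest on day 0 at 503, and the RXRi mean is the lowest of the 3 treatments in each panel from day 3 on.

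The peptidases did not share a single order of days. In DMSO, Enpep and Mep1b were highest on day 5, like the genes above, and Anpep, Dpp4 and Mep1a on day 0. Anpep was by far the highest member on day 0, with 513 and 493 RPKM, and was at 16.3 and 24.0 on day 1, 21.9 and 30.6 on day 3, 73.8 and 126 on day 4 and 142 and 154 on day 5 in DMSO. It fell by 4.60 ± 0.23 on the log2 scale to day 1 (adjusted p = 2.1e-10), by more than any other of the 10 genes in this step. On day 5 it was at 0.294 times its level on day 0 (log2 fold change -1.76 ± 0.24, adjusted p = 6e-06).

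Enpep started low, at 2.49 and 2.31 RPKM on day 0, and was at 0.190 and 0.203 on day 1, 1.28 and 0.958 on day 3, 21.97 and 32.6 on day 4 and 46.7 and 46.3 on day 5. It rose by 3.71 ± 0.24 from day 3 to day 4 (adjusted p = 8.3e-09). Dpp4, which is also found on many other cells, was at 24.9 and 22.8 RPKM on day 0, 4.04 and 5.25 on day 1, 3.29 and 2.31 on day 3, 8.37 and 7.72 on day 4 and 14.6 and 14.1 on day 5. Its day 5 level was below that of day 0 (-0.70 ± 0.16, adjusted p = 0.00085), a call that was lost under another scaling of the libraries (-0.34, adjusted p = 0.093). Exons of Dpp4 overlap those of an antisense gene.

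The meprins differed from each other at the start. Mep1a, the subunit that is also secreted, was at 17.7 and 17.9 RPKM on day 0 and 1.27 and 1.28 on day 1, and at 1.203 and 0.8291 on day 3, 6.00 and 6.99 on day 4 and 12.98 and 15.9 on day 5 in DMSO. Mep1b, the membrane-bound subunit, was at 2.43 and 2.51 RPKM on day 0, 7.17 and 8.40 on day 1 and 102 and 96.2 on day 5. From day 0 to day 1 Mep1a fell by 3.05 ± 0.25 (adjusted p = 3.3e-08) and Mep1b rose by 1.34 ± 0.14 (adjusted p = 3.9e-07), and their libraries did not overlap between the days in either case. The call of Mep1b was lost with the library left out put back (adjusted p = 0.16). On day 5 Mep1b was 40.1-fold above day 0 (log2 fold change 4.85 ± 0.14, adjusted p = 9.8e-14), while Mep1a differed from it by -0.29 ± 0.25 (adjusted p = 0.31), and with the other scaling by a log2 fold change of 0.07 (adjusted p = 0.84).

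Counted over the 10 genes, 7 were lower on day 1 than on day 0, where 35.6% of the 12443 genes tested were lower, and 2 (Alpi and Mep1b) were higher, where 25.6% were. Their median log2 fold change was -1.71, against -0.09 over all genes tested. From day 1 to day 3, Sis, Alpi and Dpp4 fell, where 6.49% of all genes did, and Mgam and Enpep rose, where 6.19% did, 5 calls in all. That of Enpep was lost without any 1 of the 4 cultures (adjusted p of 0.067 to 0.26). The count was 2, those of Sis and Mgam, without culture 2 of DMSO day 1, and 3 without either culture of DMSO day 3.

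From day 3 to day 4, after the change of medium, 9 rose (all but Lct), where 20.5% of all genes did. The median over the 10 was 2.32, against -0.10 over all genes. From day 4 to day 5, 5 rose (Sis, Mep1a, Dpp4, Mgam and Mep1b), where 2.11% of all genes did, and the median was 0.77 against -0.08. With the culture as a block there were 8, with Lct (adjusted p = 0.036), Treh (0.041) and Anpep (0.034) added. Without culture 2 of DMSO day 4 the call of Sis alone stood, and without culture 1 of DMSO day 4 or of DMSO day 5 there were 2. Between day 0 and day 5, 7 rose, where 18.7% of all genes did, and 2 fell (Anpep and Dpp4), where 51.1% did. In bulk RNA, fewer cells of a type and less RNA per cell cannot be told apart.

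Retinoic acid moved single members early and most of them on day 3. On day 1, Alpi was at 41.7 and 56.1 RPKM with atRA against 13.4 and 16.1 with DMSO (log2 fold change 1.66 ± 0.17, adjusted p = 1.5e-05), and Mep1b at 13.8 and 17.2 against 7.17 and 8.40 (0.91 ± 0.14, adjusted p = 0.0006). Their libraries did not overlap between the treatments. Mgam was at 33.6 and 33.6 RPKM against 20.6 and 20.7 (0.68 ± 0.18, adjusted p = 0.042), a call lost without any 1 of the 4 cultures (adjusted p of 0.2 to 0.24). These 3 were the members that rose, where 1.93% of all genes did. Sis was at 12.1 and 15.9 RPKM against 13.7 and 20.6 (adjusted p = 0.87). Anpep was at 11.2 and 13.3 RPKM against 16.3 and 24.0 (-0.66 ± 0.24, adjusted p = 0.19, and 0.022 with the culture as a block).

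On day 3, 7 of the 10 rose with atRA, where 4.32% of all genes did, and the median of the 10 was 1.15 against -0.04 over all genes. Sis was at 29.9 and 43.0 RPKM against 3.27 and 4.45 (2.94 ± 0.22, adjusted p = 1.9e-07), and Alpi at 63.7 and 65.0 against 7.32 and 9.72 (2.80 ± 0.17, adjusted p = 1.7e-08). Mep1b was at 36.5 and 41.1 RPKM against 8.74 and 8.71 (2.03 ± 0.14, adjusted p = 5e-08). The libraries of these genes lay apart by treatment, with those of atRA higher.

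The aminopeptidases rose as well on day 3, Enpep from 1.12 to 5.89 RPKM on average (1.70 ± 0.24, adjusted p = 0.00015) and Anpep from 26.3 to 68.7 (1.38 ± 0.24, adjusted p = 0.00078). Mgam (0.72 ± 0.18) and Dpp4 (0.64 ± 0.16, both adjusted p = 0.014) changed least among those called. The call of both was lost without culture 2 of DMSO (adjusted p = 0.14 and 0.25), that of Mgam without culture 2 of atRA (0.13) and that of Dpp4 without culture 1 of atRA (0.21). Treh, Mep1a and Lct had values of 0.93 ± 0.42, 0.46 ± 0.25 and 0.47 ± 0.33, which did not pass the test (adjusted p of 0.23 to 0.51). The scale understates these low genes, whose means with atRA were 3.085, 1.726 and 8.27 times those of DMSO. Their libraries did not overlap between the treatments. Treh was at 2.119 to 2.525 RPKM against 0.6307 to 0.9243, Mep1a at 1.672 to 1.874 against 0.7734 to 1.401, and Lct at 0.3968 to 0.52 against 0.02242 to 0.1083.

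On day 4 the atRA group was higher than DMSO in 4 of the 10, where it was in 3.58% of all genes. Anpep was at 247 and 312 RPKM against 73.8 and 126 (1.51 ± 0.24, adjusted p = 0.00053), and Mep1b at 158 and 194 against 60.5 and 68.1 (1.43 ± 0.14, adjusted p = 3.4e-06). The libraries did not overlap for either. Dpp4 (0.72 ± 0.16, adjusted p = 0.0067) and Alpi (0.62 ± 0.17, adjusted p = 0.03) were the others, and both calls were lost without culture 2 of atRA (adjusted p = 0.064 and 0.24). That of Alpi was lost also without culture 1 or culture 2 of DMSO (0.14 and 0.073). Mgam had 0.55 ± 0.18 (adjusted p = 0.056, 0.025 with the culture as a block and 0.026 with the other scaling), and Sis 0.58 ± 0.22 (adjusted p = 0.099).

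On day 5, 2 of the 10 differed between atRA and DMSO, in opposite directions. Mep1b was at 164 and 220 RPKM against 102 and 96.2 (0.94 ± 0.14, adjusted p = 0.00046), where 2.14% of all genes were higher. Sis was at 344 and 531 RPKM against 880 and 658 (-0.84 ± 0.22, adjusted p = 0.035), where 2.89% were lower. The 2 cultures of the atRA group stood apart on this day: Treh was at 21.6 RPKM in culture 1 and 81.6 in culture 2, Lct at 0.299 and 2.22, and Mep1a at 5.62 and 14.1. Culture 2 was also the higher for these genes in DMSO on day 5. There Treh was at 36.4 and 61.7 RPKM, Lct at 0.955 and 3.76, and Mep1a at 12.98 and 15.9.

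The day 5 count therefore depends on the culture. Without atRA culture 2 it was 7, with 6 lower and 1 higher, and without atRA culture 1 or DMSO culture 1 it was 1, that of Mep1b, with Sis at -0.53 (adjusted p = 0.17) and -0.63 (0.36). With the culture as a block it was 4, with Alpi (-0.55, adjusted p = 0.046) and Anpep (0.57, adjusted p = 0.038) added. In the order of group means Mep1b was highest in the atRA groups of days 5 and 4, which overlapped, while Sis was highest in DMSO on day 5, apart from the next group, and Enpep in DMSO on day 5, overlapping the next.

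The log2 effect of atRA was lower on the later days for some of the genes. On day 4 minus day 3 the difference was -2.36 ± 0.31 for Sis (adjusted p = 0.0022) and -2.18 ± 0.24 for Alpi (adjusted p = 0.00038). These 2 were the members for which it passed, where it was lower in 0.177% of all genes. On day 5 minus day 3 it was -3.78 ± 0.31 for Sis, -3.36 ± 0.24 for Alpi, -2.47 ± 0.34 for Enpep and -1.10 ± 0.19 for Mep1b, where 1.98% of all genes were lower (adjusted p of 1.6e-06 to 0.0042). The call of Mep1b was lost with the library left out put back (adjusted p = 0.93). Without atRA culture 2 of day 5 there were 7, with Lct, Treh and Mep1a added. Within the atRA groups 9 of the 10 rose from day 3 to day 4, where 17.9% of all genes did. From day 4 to day 5, 0 were called with limma, where 0.627% of all genes were, 1 (Alpi) had an unadjusted p under 0.05, and voom called 0.

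Organoids on day 3 with atRA were also set against DMSO organoids on day 4, after the change of medium. In 7 of the 10 they were lower, where they were in 20.5% of all genes. Sis was at 17.4% of the DMSO day 4 mean (-2.52 ± 0.22, adjusted p = 8.6e-07), Alpi at 24.4%, Enpep at 21.6% and Treh at 13.4%. Anpep, at 68.7%, was not called (-0.49 ± 0.24, adjusted p = 0.097), though it was with the culture as a block (0.016), with the other scaling (0.041) and without DMSO culture 1 of day 4 (0.013). The call of Dpp4 was lost without atRA culture 2 (0.068). Mgam was at 80.2% (-0.31 ± 0.18, adjusted p = 0.15).

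With the RXR antagonist 7 of the enzymes were below DMSO on day 1, where 9.93% of all genes were, and all 10 were on day 5. On day 1 Alpi was at 0.549 and 0.484 RPKM against 13.4 and 16.1 (-3.37 ± 0.17, adjusted p = 4.8e-10), and Mep1b at 0.185 and 0.178 against 7.17 and 8.40 (-2.89 ± 0.14, adjusted p = 1.6e-10). Their libraries were far apart. The comparisons of atRA and of RXRi share the DMSO libraries. Mgam, Anpep, Mep1a, Dpp4 and Sis fell by 0.81 to 1.16. That scale understates Mep1a, which was at 0.0361 and 0.106 RPKM against 1.27 and 1.28, or 5.57% of the DMSO mean. Mgam, Anpep, Dpp4 and Sis were at 42.4% to 53.7%. The call of Sis (-0.81 ± 0.22, adjusted p = 0.015) was lost without DMSO culture 2 (0.18) and without either RXRi culture (0.062 and 0.087).

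On day 3, 8 fell, where 25.4% of all genes did, and the median of the 10 was -1.26 (-1.51 with Mep1a at its bound) against -0.07 over all genes. Anpep was at 0.637 and 0.835 RPKM against 21.9 and 30.6 (-3.96 ± 0.24, adjusted p = 8.3e-10) and was the member furthest from DMSO on the log2(RPKM + 1) scale. Sis was at 0.438 and 0.629 RPKM against 3.27 and 4.45 (-1.65 ± 0.22, adjusted p = 1.5e-05). Mep1a had 0 reads in all 4 RXRi libraries, against 277 in those of DMSO. With a floor of 3 reads over the group, this is at least 81.6-fold lower, for counting error only.

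On days 4 and 5 Sis, Alpi and Anpep were below 1 RPKM with RXRi. Sis was at 0.559 and 0.479 RPKM on day 4 with RXRi and at 0.495 and 0.318 on day 5, when DMSO had 880 and 658 (-9.09 ± 0.22, adjusted p = 2e-15). That is 0.0529% of the DMSO mean, with 35 to 56 reads in each of the 4 libraries. Alpi, at 0.517 and 0.406 RPKM on day 5, was at 0.118% (-8.07 ± 0.17, adjusted p = 4.4e-16), and Anpep, at 0.310 and 0.352, was at 0.224% (-6.81 ± 0.24, adjusted p = 1.6e-13).

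Of the other peptidases on day 5, Mep1b was at 0.349 and 0.2998 RPKM with RXRi (-6.24 ± 0.14), Enpep at 0.0190 and 0.0235 (-5.54 ± 0.24) and Dpp4 at 0.318 and 0.348 (-3.52 ± 0.16). Mep1a had 1 read in all 4 libraries together on day 4 and again on day 5, and Lct at most 3 reads in a library on day 5. In all, 9 were lower on day 4, where 37.0% of all genes were, and 10 on day 5, where 35.1% were, with medians of -4.45 and -5.53 against -0.13 and -0.06 over all genes. These counts did not change when any 1 culture was left out.

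Mgam was the exception in level. It remained at 16.3 and 14.2 RPKM with RXRi on day 3, 11.1 and 8.95 on day 4 and 12.3 and 7.99 on day 5, with 1381 to 2252 reads in each library of day 5. This was 7.31% of the DMSO mean on day 5, the highest share among the 10, followed by Dpp4 with 2.32%. Its fall against DMSO passed the test on every day, from -1.16 ± 0.18 on day 1 (adjusted p = 0.00014) to -3.65 ± 0.18 on day 5 (adjusted p = 1.1e-11).

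The gap between RXRi and DMSO was tested as a change of the RXRi effect with time. From day 3 to day 4 it became more negative for 9 of the 10, where it did for 12.2% of all genes, and from day 3 to day 5 for all 10, where it did for 16.0%. The last call for Lct was lost without DMSO culture 2 of day 3 or RXRi culture 1 of day 3 (adjusted p = 0.051 in both) and without DMSO culture 2 of day 5 (0.092). Sis had the largest change, -7.44 ± 0.31 to day 5 (adjusted p = 1.9e-10). The levels near 0 with RXRi limit this difference on the scale used. For Sis, Enpep, Treh and Mep1a the difference to day 4 was -5.469, -3.711, -3.344 and -1.895. Their DMSO rises from day 3 to day 4 were 5.457, 3.715, 3.348 and 1.9. For these genes the test thus repeats the DMSO rise with its sign reversed and is not separate from it. On reads, with voom, 6 and 7 of the 10 passed: Treh, Mep1a and Lct passed at neither time, and Enpep did not to day 4. Within the RXRi groups 2 were called from day 3 to day 4, and Alpi (0.37 ± 0.17, adjusted p = 0.09) was called higher with a pseudocount of 0.1 (0.00048) and with voom (0.044). Mgam fell (-0.56 ± 0.18, adjusted p = 0.015), where 32.9% of all genes did, and Mep1b rose (0.39 ± 0.14, adjusted p = 0.027), where 11.2% did. Both calls were lost without RXRi culture 2 of day 4 (adjusted p = 0.15 and 0.21), and 1 stood without either RXRi culture of day 3. From day 4 to day 5, 0 were called with limma, where 0.386% of all genes were, 1 (Mep1b) had an unadjusted p under 0.05, and voom called 0. RXRi organoids on day 5 were below DMSO organoids on day 4 in 9 of the 10, where they were in 39.3% of all genes.

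**Figure D3:**
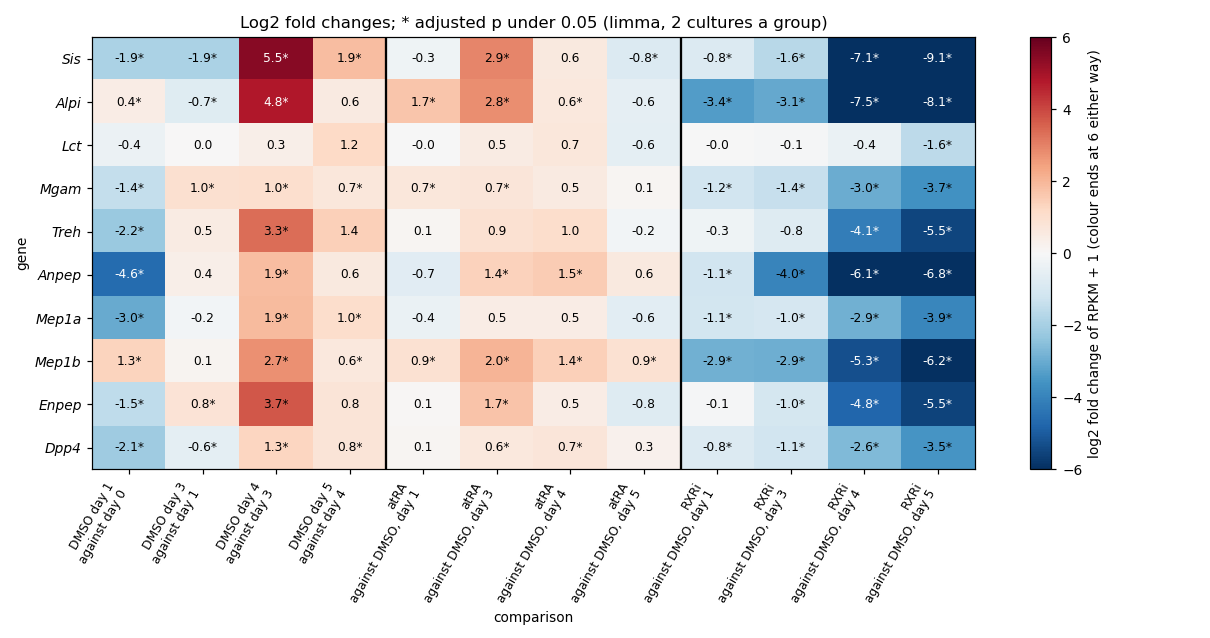
Log2 fold change of RPKM + 1 for each gene (rows) in 12 comparisons (columns), in 3 blocks for the DMSO steps, atRA against DMSO and RXRi against DMSO; red is higher, blue lower, and an asterisk marks an adjusted p under 0.05 in limma with 2 cultures a group. The column of day 4 against day 3 is red for 9 genes, with Sis at 5.46, and the column of RXRi on day 5 is blue for all 10, with Sis at -9.09; colours stop at 6 in both directions.

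Other hydrolases of the enterocyte surface were set beside the 10 from a list of 20 genes, 16 of which were tested. From day 3 to day 4 in DMSO, 12 rose and the other 4 did not pass the test (median 1.67). With atRA on day 3, 5 rose (median 0.36), and with RXRi on day 5, 13 fell and 2 rose (median -3.08). Over all genes tested, 20.5% rose in that step of DMSO and 4.32% rose with atRA on day 3. With RXRi on day 5, 35.1% of all genes fell, and the share that rose is not given here. The same shares stand beside the lists that follow. Akp3, the near copy of Alpi, had on day 3 a mean of 35.3 RPKM with atRA, 5.78 with DMSO and 0.0284 with RXRi.

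Of the nutrient transporters, 14 of 15 were tested, and 12 rose from day 3 to day 4 in DMSO (median 1.78), 5 rose with atRA on day 3 (median 0.59) and 12 fell with RXRi on day 5 (median -3.52). Slc5a1, which takes up the glucose that the disaccharidases release, was at 403 RPKM on day 5 in DMSO and at 0.400 with RXRi. The 15 genes of microvillus structure moved less: 12 rose from day 3 to day 4 (median 0.79), and 11 fell and 2 rose with RXRi on day 5 (median -0.75). Vil1, which bundles the actin of microvilli, was at 285 RPKM in DMSO and 198 with RXRi on day 5 (log2 fold change -0.53, adjusted p = 0.0001).

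**Figure D4:**
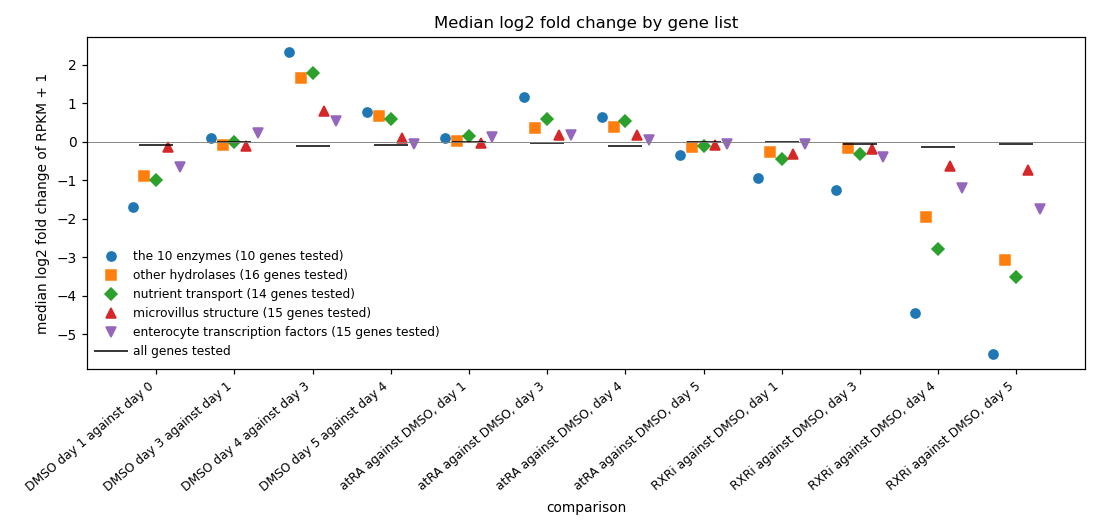
Median log2 fold change of RPKM + 1 (vertical axis) of the 10 enzymes (circles), 16 other hydrolases (squares), 14 nutrient transporters (diamonds), 15 microvillus genes (triangles up) and 15 enterocyte transcription factors (triangles down) in 12 comparisons (horizontal axis); black bars are the median of all 12443 genes tested. The enzymes' median is 2.32 from day 3 to day 4 in DMSO and -5.53 with RXRi on day 5, where that of the microvillus genes is -0.75.

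Of 16 transcription factors known from enterocyte genes 15 were tested. From day 3 to day 4 in DMSO 11 rose (median 0.54), and with RXRi on day 5, 11 fell and 2 rose (median -1.75). Cdx1 was at 77.0 RPKM on day 5 in DMSO, 77.8 with atRA and 1.71 with RXRi, and Cdx2 at 129, 124 and 23.0. Hnf4g rose from 9.89 RPKM on day 3 to 59.5 on day 4 in DMSO and was at 9.10 with RXRi on day 4, while Hnf4a was at 282 and 145 in the latter groups. Isx, an intestinal homeobox factor induced by retinoic acid, was at 148 RPKM on day 1 with atRA, 0.518 with DMSO and 0.583 with RXRi, and from day 3 on it was also at 98.6 RPKM or more in DMSO. The part of these factors in the enzyme levels was not tested.

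Markers of other cell types also differed between the groups, not always in step with the enzymes. With RXRi on day 5 all 8 Paneth, all 8 goblet and all 8 enteroendocrine genes listed fell, where 35.1% of all genes did. All 8 fetal-like genes measured rose, with a summed level of 12220 to 13030 RPKM against 610.6 to 1266 in DMSO. The share of all genes that rose in this comparison is not given here, so counts of rises cannot be set against it. Of 8 stem cell genes 7 fell and 1 rose, with a summed level of 10.2 to 12.3 RPKM against 102 to 345 in DMSO, and all 8 proliferation genes fell, from 298 to 397 RPKM in DMSO to 128 to 174. Of the 4 tuft cell genes tested 2 rose and 2 fell, and the sum of the 6 in the table was 34.9 to 39.1 RPKM against 1.84 to 1.99. With RXRi on day 5, 4 of the 6 had a mean below 1 RPKM. The highest single tuft gene in any library reached 36.5 RPKM, so the sum does not describe the whole list. The summed level of the Paneth genes was 11.01 to 19.7 RPKM with RXRi on day 5, against 3443 to 4954 in DMSO, and that of the goblet genes 634 to 1079 against 2231 to 2355. With atRA on day 3, 7 of the 8 goblet genes rose (summed level 1326 to 1802 RPKM against 589 to 723), and 11 of 14 other enterocyte markers did. In that comparison 4.32% of all genes rose. From day 0 to day 1 in DMSO, beside the fall of 7 enzymes, 7 of 8 stem cell genes fell (summed level 1233 to 1296 RPKM on day 0 and 143 to 150 on day 1) and all 8 fetal-like genes rose (55.2 to 92.2 RPKM on day 0 and 2531 to 2865 on day 1). In that step 35.6% of all genes fell and 25.6% rose. Other lists did not fall with the enzymes there. The goblet sum was 631.7 to 825.5 RPKM on day 0 and 941.6 to 1042 on day 1, and the enteroendocrine sum 1406 to 1895 and 2132 to 2639. The Paneth sum was 2904 to 4033 and 2791 to 3317. On day 3 in DMSO the enteroendocrine sum was 85.8 to 126.6 RPKM, and on day 5 it was 230.9 to 287.2. The part of these other cell types in the enzyme differences was not tested.

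Over the 13 group means the 10 genes ran together. Pearson's r of log2(RPKM + 1) ranged from 0.716 to 0.979 over the 45 pairs, with a median of 0.881. The groups share day and treatment, and each value shares the total of its library, so these are descriptions with no test. Sis (0.977) and Mgam (0.970) lay nearest to the mean profile of the 10 and Lct (0.897) furthest from it. Each member is itself part of that mean, which raises its r, while genes outside the list are not. The genes outside the list closest to the mean profile were Cyp2u1 (r = 0.996), Cyp2d26, Bche, Chpt1 and Khk.

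The nearest genes also differed between the members. For Sis they were the apolipoprotein gene Apoa4 (r = 0.985), Gstm7 and Adh1, and for Alpi the sodium-proton exchanger Slc9a3 (0.991), Ms4a8a and B3gnt7. Mep1b shared Ms4a8a (0.995) and B3gnt7 with Alpi, beside Fcgrt. Mgam lay closest to B4galnt2 (0.987), Treh to Cyp2d40 (0.996), Lct to the glucose transporter Slc2a2 (0.954), Anpep to the fatty acid transporter Slc27a2 (0.981), Enpep to Ugt2b5 (0.992), Mep1a to Cyp2c68 (0.992) and Dpp4 to Sirt3 (0.978). Each r is over 13 group means.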

How the data were processed

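RNA of intestinal organoids was sequenced in 52 libraries with a TruSeq mRNA kit, per the labels' protocols. The authors deposited a single table in RPKM, per the file headers. The submitters' processing notes name bcl2fastq 2.17, STAR 2.5.2b and mm10. How reads were counted to genes is not given in the sources used here. Reads of overlapping, antisense and near-identical genes therefore cannot be told apart. RPKM values of all 19708 genes above 0 were whole multiples of a read within 0.001 of a read. These reads gave the depths, the floor of 3 reads and 1 alternative.

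The library with 12443 reads was left out. Duplicates were averaged as log2(RPKM + 1) into 26 culture means. A gene was tested if 4 or more libraries reached 1 RPKM, which left 12443 of 24116 genes (by chance the same number as the reads of that library) and removed 11673. The fit was made with limma 3.58.1 (R 4.3.3) to all 13 groups (trend and robust, 13 residual degrees of freedom), with two-sided p-values, adjusted by Benjamini-Hochberg for each of 23 comparisons, and a threshold of 0.05. The fit was tested on simulated data. The members and gene lists were chosen with earlier results of these data known. All 10 members are named, list genes may be named, and the nearest genes are the 3 of highest r for each member and 5 for their mean. Of the latter, the closest are printed. Predicted genes are not named. Protein sequences were not used here.

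Culture numbers pair the samples by mouse, per the labels. Across 78 pairs of groups, the deviations of same-numbered cultures had r of -0.317 to 0.759, with 0.149 in the middle and 47 above 0.1. The culture is a block in 1 alternative. The others were the library left out, the pseudocount, the filter, the scaling, a fit on libraries, voom on reads and leaving out each culture, whose lone partner was assumed to vary like the other groups. Promoters and coordinates are from RefSeq tables of GRCm38.p6, 1-based.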

Additional observations from a re-analysis of the deposited data

Results flagged for a closer look

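Several members had a drug effect that differed between days by the test of that difference in limma. For atRA the effect on day 4 minus that on day 3 was -2.36 for Sis and -2.18 for Alpi. On day 5 minus day 3 it was -3.78 for Sis, -3.36 for Alpi, -2.47 for Enpep and -1.10 for Mep1b, all on the log2(RPKM + 1) scale. That of Mep1b lost its call with the library left out put back (adjusted p = 0.93).

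For RXRi the effect on day 4 minus that on day 3 was -5.47 for Sis, -4.44 for Alpi, -3.71 for Enpep, -3.34 for Treh and -2.35 for Mep1b. It was -2.15 for Anpep, -1.89 for Mep1a, -1.59 for Mgam and -1.49 for Dpp4. On day 5 minus day 3 it was -7.44 for Sis, -5.01 for Alpi, -4.72 for Treh, -4.50 for Enpep and -3.30 for Mep1b. It was -2.93 for Mep1a, -2.85 for Anpep, -2.38 for Dpp4, -2.27 for Mgam and -1.54 for Lct. With voom on reads several of these calls were lost. To day 4 they were Treh (adjusted p = 0.53), Mep1a (0.61) and Enpep (0.082), and to day 5 Treh (0.41), Mep1a (0.36) and Lct (0.12). The call of Mep1a to day 4 was also lost with the library left out put back (0.084).

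A library stood apart from the other 3 of its group in 2 of 119 sets of libraries tested, where chance marks about 1 in 20 for independent values. Duplicates of a culture are not independent, so the share found cannot be set against that rate. Both were Mep1a with RXRi, at 0.014 RPKM in culture 2 on day 4 and 0.0166 in culture 1 on day 5, with 1 read in that library and 0 in the others, so that the gap was the whole range (a ratio of 1.0).

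The library left out, DMSO culture 1 on day 1, had 7 reads each of Sis, Mgam and Anpep, above the floor of 3. They correspond to 94.55 RPKM for Sis, 65.98 for Mgam and 148.8 for Anpep. The other 3 libraries of that group had 13.7 to 20.9 RPKM of Sis, 20.6 to 20.8 of Mgam and 16.3 to 24.6 of Anpep.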

How the results depend on the processing

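No member value reversed among 1817 compared under the settings other than leaving out a culture, where 1727 kept their side of the threshold, 45 lost and 45 gained a call, nor among 1080 with a culture left out (48 lost, 19 gained). The counts that moved were these, with causes not tested. For DMSO day 5 against day 4 (5), they were 1 with the library left out put back, 2 with a pseudocount of 0.1, 3 without a filter, 8 with the replicate block, 10 in the fit on libraries and 1 to 5 leaving out a culture. For atRA on day 4 (4), they were 2 with that library, 8 on libraries and 2 to 5. For atRA on day 5 (2), they were 0 with that library, 1 with the pseudocount of 0.1, without a filter or with median-of-ratios scaling, 4 with the replicate block, 6 on libraries and 1 to 7. For atRA day 5 against day 4 (0), they were 1 on libraries and 0 to 3. For RXRi day 4 against day 3 (2), they were 0 with that library, 5 with the pseudocount of 0.1, 1 with scaling and 0 to 2. Leaving out a culture gave 2 to 4 for DMSO day 3 against day 1 (5) and 4 to 7 for the change of the atRA effect from day 3 to day 5 (4). The replicate block gained 8 member calls, named with the results, lost 0 and changed no other call. Median-of-ratios scaling moved the median of all genes by 0.32 for DMSO day 5 against day 0, 0.22 and 0.18 for day 4 against day 3 of atRA and RXRi, and 0.11 to 0.14 for 5 further comparisons. It changed the sign of 3 values without a call. Depth limits Lct, Treh, Mep1a and Enpep with RXRi, which had few reads.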
